A study of Homo sapiens with 12 samples.

Results

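The comparison described here set 3 FMR1 knockout lines against wild-type SH-SY5Y cells, all grown in heavy SILAC medium. It used 6 of the 12 RNA-seq libraries of the study: 1 library from each of 3 independently made knockout lines, called lines 1, 2 and 3 here, and 3 wild-type libraries. The cells had spent 2 weeks in DMEM:F-12 with 10% dialysed serum, in which arginine and lysine carried heavy carbon and nitrogen isotopes. The other 6 libraries came from the same lines in light medium, which differed in holding ordinary arginine and lysine. SH-SY5Y is an established human neuroblastoma cell line with features of sympathetic neurons. Each knockout line entered with a single library, so differences between lines and between libraries of a line cannot be told apart in heavy medium, nor can a line's own history and its loss of FMR1. The labels do not say whether the wild-type libraries came from separate cultures, so p-values measure the spread between these libraries, which may be technical. Of 59087 gene symbols, 16083 passed the filter on low counts and were tested.

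The product of FMR1, FMRP, binds RNA; it associates with many neuronal mRNAs and is known for repressing their translation. Loss of FMRP in people causes fragile X syndrome, and its paralogs FXR1 and FXR2 are close relatives that bind RNA as well. Total mRNA levels, which were measured here, are a separate quantity from translation. SILAC labelling serves to compare proteins by mass spectrometry, and the labelled amino acids are chemically the same as ordinary ones.

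The libraries held 29181584 to 35589916 counts. Expression is given as CPM, counts scaled to a common library size by the TMM method over all 12 libraries, and values are compared between libraries, never between genes. Markers of adrenergic neuroblastoma cells passed the filter for 25 of 25 genes on the list. Of 6 blood markers, 4 lay under 0.1 CPM in all 6 libraries, as did 4 of 5 endothelial and 5 of 9 Schwann and glial markers. Summed Schwann and glial markers came to 8.09 to 8.98 CPM in wild type and to 22.2, 32.7 and 12.1 CPM in lines 1, 2 and 3. PMP22 made up most of these sums, at 5.66 to 6.12 CPM in wild type and at 18.4, 27.5 and 10.1 CPM in the lines. The part of these markers in the results below was not tested. Transcripts of the mitochondrial genome took 9.53% to 10.5% of counts in wild type and 12.1%, 11.5% and 10.9% in the 3 lines.

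The targeted gene was measured first. FMR1 (chromosome X, 147911951 to 147951125, GRCh38) was at 42.1, 37.2 and 36.2 CPM in the wild-type libraries and at 22.5, 12.8 and 7.13 CPM in lines 1, 2 and 3. The groups did not overlap, and line 1 lay nearest to wild type. The difference was -1.44 on the log2 scale (SE 0.403) with an adjusted p of 0.18 by edgeR's quasi-likelihood test, and -1.94 with an adjusted p of 0.0613 without line 1. DESeq2 gave an adjusted p of 0.0376 for all 3 lines. In light medium the same lines held 11.4, 11.5 and 9.08 CPM, against 36.6 to 37.3 CPM in wild type. FMR1 reads were therefore left in every knockout library, and where the gene was edited is not stated in the labels. FXR1 differed by -0.06 (SE 0.069, adjusted p of 0.651 by edgeR) and FXR2 by -0.06 (SE 0.071, adjusted p of 0.684 by edgeR). Among FMRP, its paralogs and partner proteins, 19 genes were tested and none passed by edgeR, against 0.112% of all genes. DESeq2 called FMR1 alone, against 1.06% of all genes called lower. AGO2, which binds small RNAs, was at 101 to 116 CPM in wild type and at 92.5, 90.4 and 93.8 CPM in lines 1, 2 and 3.

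The heavy library labelled line 1 stood apart from the others in a way that touches every result. Genes were chosen in light medium, separately for each line, as those at least 4-fold from the wild-type mean (0.5 CPM added to both) with a mean of the line and wild type of at least 5 CPM, and the line's difference from wild type in heavy medium was divided by its difference in light medium. This ratio is 1 where both media gave the same difference and 0 where the heavy library equalled wild type. It had a median of 0.507 over 136 genes for line 1, with quartiles of 0.468 and 0.552. Its median was 0.987 over 150 genes for line 2 and 1 over 8 genes for line 3. In line 1 the 74 genes that were higher in light medium had a median of 0.511 and the 62 that were lower had a median of 0.504.

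**Figure D1:**
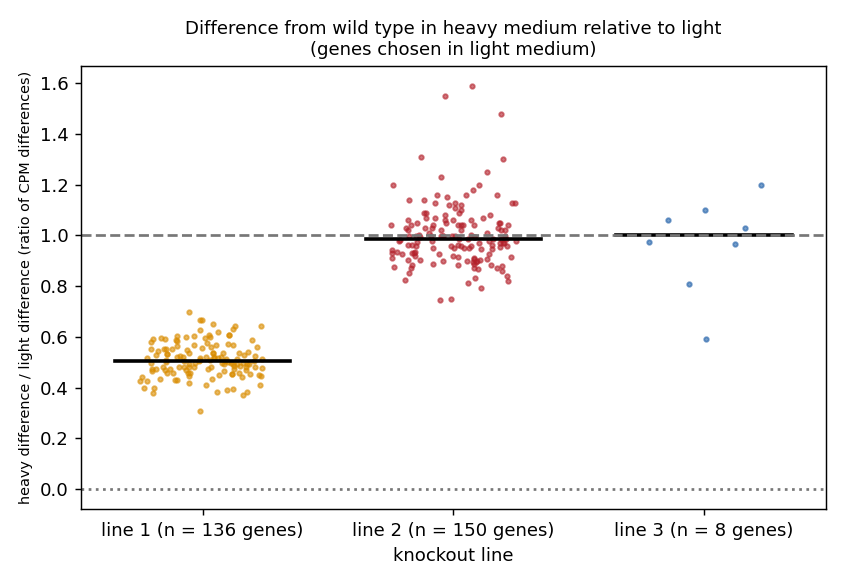
Ratio of the knockout-minus-wild-type CPM difference in heavy medium to that in light medium (vertical axis, no unit) for each line (horizontal axis). Each point is a gene chosen in light medium, the black bars are medians, and the dashed line marks a ratio of 1; line 1 is centred on 0.507 and line 2 on 0.987.

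Genes that line 1 had lost in light medium showed the same. Loss meant a level under 2% of the wild-type mean in the line's light library, for genes of at least 5 CPM in every light wild-type library, and 18 genes met it in line 1. BASP1, a membrane protein of growing axons, was at 1.33 CPM in the light library of line 1, against a wild-type mean of 87.2 CPM. In heavy medium it was at 43.2, 57.2 and 74.0 CPM in lines 1, 2 and 3, against 88.7 CPM in wild type. TEAD2, a transcription factor of the Hippo pathway, was at 0.255 CPM in line 1 in light medium and at 33.2 CPM in heavy medium, against 68.1 CPM in heavy wild type. Lines 2 and 3 held 0.927 and 72.5 CPM of TEAD2 in heavy medium. BCHE, which encodes butyrylcholinesterase, went from 0.0283 CPM in light to 3.04 CPM in heavy medium in line 1, against 6.25 CPM in heavy wild type. In heavy medium lines 2 and 3 held 0.0281 and 11.5 CPM of BCHE, so line 3 was above wild type. Over the 18 genes, the heavy library labelled line 1 held 40% to 57.5% of the heavy wild-type level, with a median of 49.8%. Line 2 had lost 4 genes by the same rule, and its heavy library held 0% to 1.74% of the wild-type level of those. Of genes under 0.1 CPM in light wild type that were at 5 CPM or more in a line's light library, ENPEP, SLC43A3, TNFRSF1A and RAB37 in line 1 were at 42.2% to 60.2% of that line's light level, whereas the 4 genes gained in line 2 were at 93.2% to 100%.

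**Figure D2:**
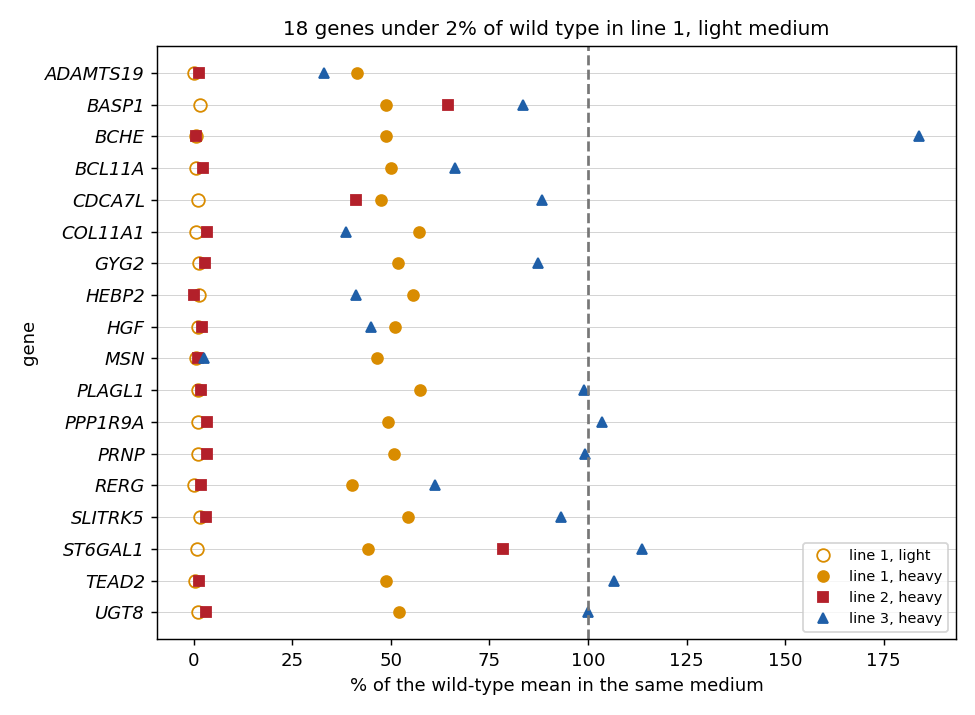
Level as a percent of the wild-type mean in the same medium (horizontal axis) for the 18 genes under 2% of wild type in the light library of line 1. Open circles are line 1 in light medium, filled circles line 1 in heavy medium, squares line 2 and triangles line 3 in heavy medium; the filled circles lie between 40% and 57.5%.

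Distances between whole libraries followed. The SD of log2 differences over 12505 genes was 0.158 to 0.226 between wild-type heavy libraries. It was 0.370 to 0.410 between wild type and line 1, 0.649 to 0.665 for line 2 and 0.296 to 0.316 for line 3. Between the heavy and light libraries of the same line it was 0.393 for line 1, 0.203 for line 2 and 0.181 for line 3. The library labelled line 1 in heavy medium thus lay about as far from its own light library as from wild type. Its smallest distances were to line 3, at 0.296 from the light and 0.322 from the heavy library of that line. Line 3 was itself the knockout line nearest to wild type. The labels give no more than line 1 for the heavy library of line 1, and whether its RNA came from line 1 cells alone was not tested. Adjusted p-values without it are given below for the called genes, and list counts without it follow each paragraph on lists.

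With all 3 lines, 18 of 16083 genes passed at an adjusted p under 0.05 (0.112%, edgeR's quasi-likelihood test with Benjamini-Hochberg adjustment). All 18 rose and 0 fell. This balance changed with the lines used: calls were 16 higher and 3 lower without line 1, 225 and 82 without line 2, and 1483 and 760 without line 3. Of 23 genes at least 2-fold lower in both lines 2 and 3, the heavy library labelled line 1 was past 2-fold for 3. Of 68 such higher genes it was past 2-fold for 59. At an unadjusted p under 0.05, 1808 genes were higher (11.2%) and 1077 lower (6.7%). DESeq2, which tested 28989 genes, called 646 higher and 170 lower, of which 624 (3.88%) and 170 (1.06%) were among the 16083. Limma-voom called 2 genes. In the text below, passed or called refers to edgeR unless DESeq2 is named. The count rested on single libraries: it was 0 without any 1 of the 3 wild-type libraries (2038, 1685 and 2109 genes at an unadjusted p under 0.05), 19 without line 1, 307 without line 2 and 2243 without line 3. All 18 genes kept a positive difference under every alternative that tested them.

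Among the 18 called genes the largest rises were in GPRASP1 and GPRASP2, neighbouring genes on the long arm of chromosome X whose products bind G protein-coupled receptors and help sort them after uptake into the cell. GPRASP2 (chromosome X, 102712176 to 102717733) was at 2.78, 2.76 and 2.84 CPM in wild type and at 24.6, 47.3 and 39.9 CPM in lines 1, 2 and 3. Every knockout library was far above every wild-type library, line 1 being the lowest of the 3. The difference was 3.74 on the log2 scale (SE 0.251, adjusted p of 0.00895 by edgeR, and 2.88e-05 without line 1), and it was the only call left when edgeR tested for a change beyond 1.5-fold. GPRASP1 (chromosome X, 102651366 to 102659083) was at 1.25, 1.03 and 1.21 CPM in wild type and at 12.7, 30.01 and 13.5 CPM in the 3 lines. Its difference was 4.01 (SE 0.407, adjusted p of 0.0429 by edgeR, and 0.0151 without line 1), with line 1 level with line 3. ARMCX5-GPRASP2, a readthrough transcript that overlaps GPRASP2, was called as well. Its wild-type mean was 0.663 ± 0.137 CPM and its knockout mean 4.99 ± 1.63 CPM (SD, n = 3), with the lines at 3.45, 6.69 and 4.84 CPM. Reads of the overlapping genes may not be separable. The GPRASP and ARMCX list had 9 tested genes, of which GPRASP1 and GPRASP2 passed, against 0.112% of all genes. Above every wild-type library lay 4 of the 9 and below 0, against 14% and 11.4% of all genes. Without line 1 these counts were the same, against 17.6% and 16.2% of all genes. DESeq2 called 3 higher and 0 lower, against 3.88% and 1.06%. ARMCX2, an armadillo-repeat protein, was at 52.2 to 54.8 CPM in wild type and at 67.2, 74.5 and 63.6 CPM in the lines (adjusted p of 0.107 by edgeR).

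Stretches around the RefSeq starts of both genes are printed because the genes rose together and the stretches resemble each other. Over the 250 bases before the RefSeq start (GRCh38.p14, plus strand), the GPRASP1 and GPRASP2 promoters had 230 identical bases in 251 aligned columns, or 91.6%, against 51.6% for GPRASP1 and OAS3. Each held 23 CG dinucleotides, and 25.8% of 35114 RefSeq promoters of that length held at least as many, with a median of 11. The first line is the part of the GPRASP1 window before the GENCODE start as well (chrX:102651233-102651365), and the others are the last 30 bases of each window (chrX:102651453-102651482 and chrX:102712418-102712447), with CG in capitals. The GPRASP2 window lies wholly inside the GENCODE gene, and no GPRASP2 bases before the GENCODE start are shown. Only the letters of these windows are described, since no data on DNA methylation or binding were used here.
GPRASP1 upstream: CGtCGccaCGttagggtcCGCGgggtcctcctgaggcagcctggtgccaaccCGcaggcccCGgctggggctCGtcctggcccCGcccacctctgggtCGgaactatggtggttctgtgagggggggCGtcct
GPRASP1: tttggtgcagaggCGtggggggCGggactc
GPRASP2: tttggtgcagaggCGtggggggCGggaCGc

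Genes of innate immune signalling were among the rises. OAS3 (chromosome 12, 112938352 to 112973249), an interferon-induced sensor of double-stranded RNA, was at 10.6, 11.5 and 10.4 CPM in wild type and at 21.1, 29.5 and 26.2 CPM in lines 1, 2 and 3. Its difference was 1.25 on the log2 scale (SE 0.134, adjusted p of 0.0251 by edgeR), with line 1 again the lowest. MYD88 (chromosome 3, 38138478 to 38143022), the adaptor of Toll-like and interleukin-1 receptors, was at 17.9, 19.6 and 19.2 CPM in wild type and at 28.2, 34.1 and 32.2 CPM in the lines. It rose by 0.74 (SE 0.1003, adjusted p of 0.0449 by edgeR). Both kept an adjusted p under 0.05 without line 1, at 0.00922 for OAS3 and 0.0456 for MYD88. Of 18 interferon-stimulated genes tested, OAS3 was the only one that passed, 6 lay above wild type without overlap and 0 below, against 14% and 11.4% of all genes. Without line 1 these were 7 and 0, against 17.6% and 16.2% of all genes. With all 3 lines DESeq2 called 2 of the 18 higher and 0 lower, against 3.88% and 1.06% of all genes. STAT2, a transcription factor of interferon signalling, was at 26.3 to 28.2 CPM in wild type and at 39.2, 42.7 and 31.0 CPM in the lines (adjusted p of 0.123 by edgeR). MYD88 was on the list of TNF receptors and adaptors, and it was the only one of 23 tested that passed. Of the 23, 4 lay above wild type without overlap (17.4%) and 2 below (8.7%), near the shares of all genes. Without line 1 these were 6 and 2, and DESeq2 called 2 higher and 0 lower with all 3 lines.

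Ion channel and receptor genes came next. P2RX5 (chromosome 17, 3672199 to 3696404), a subunit of ATP-gated cation channels, was at 0.779, 1.22 and 1.12 CPM in wild type and at 4.65, 8.04 and 4.31 CPM in lines 1, 2 and 3. Its difference was 2.44 (SE 0.295, adjusted p of 0.0314 by edgeR, and 0.045 without line 1). All 4 tested members of the P2X list lay above wild type without overlap, with and without line 1, against 14% and 17.6% of all genes, and P2RX5 was the 1 that passed. P2RX7, a further ATP-gated channel, was at 8.03 to 8.74 CPM in wild type and at 10.6, 17.1 and 9.98 CPM in the lines (adjusted p of 0.183 by edgeR). GNG7, a gamma subunit of heterotrimeric G proteins, rose from 11.8 ± 0.232 to 22.1 ± 2.68 CPM (SD, n = 3), with the lines at 20.7, 25.2 and 20.4 CPM. SHISA4, a member of the Shisa family of membrane proteins, rose from 7.73 ± 0.277 to 14.7 ± 1.87 CPM, with the lines at 14.4, 16.7 and 13.0 CPM.

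Several of the remaining rises encode enzymes. ME3 (chromosome 11, 86441108 to 86672636), the mitochondrial NADP-dependent malic enzyme, was at 1.66, 1.22 and 2.27 CPM in wild type and at 6.90, 9.58 and 6.06 CPM in the lines. It rose by 2.13 on the log2 scale (SE 0.260, adjusted p of 0.0314 by edgeR). LHPP (chromosome 10, 124461834 to 124617888), a phosphatase that acts on phospholysine and phosphohistidine, was at 4.51, 4.88 and 6.23 CPM in wild type and at 14.3, 19.5 and 12.6 CPM in the lines. AOX1, aldehyde oxidase, was low everywhere, with means of 0.105 ± 0.0223 CPM in the wild-type and 1.18 ± 0.294 CPM in the knockout libraries (SD, n = 3). Lines 1, 2 and 3 held 0.906, 1.15 and 1.49 CPM of AOX1, with line 3 the highest. HACD4, an enzyme of very long chain fatty acid synthesis, was at 0.105 ± 0.0268 and 0.782 ± 0.199 CPM, with the lines at 0.672, 1.01 and 0.663 CPM. FABP5, a fatty acid carrier, was at 7.42, 7.10 and 8.37 CPM in wild type and at 14.8, 16.7 and 12.8 CPM in the lines. ARPIN, an inhibitor of the Arp2/3 actin nucleator, was at 11.3 to 12.3 CPM in wild type and at 21.7, 31.0 and 21.5 CPM in the lines. MPV17L, CCDC3 and the non-coding genes LINC00884 and AC008555.1 complete the list, with log2 differences of 0.99, 2.00, 2.23 and 1.20. In lines 1, 2 and 3 MPV17L was at 16.4, 20.4 and 16.9 CPM and CCDC3 at 7.57, 11.55 and 6.33 CPM. LINC00884 was at 2.22, 4.13 and 2.68 CPM and AC008555.1 at 5.14, 5.98 and 4.67 CPM. Line 2 was the highest of the 3 lines for 17 of the 18 genes in heavy medium. Over the 18 genes the ratio of heavy to light differences had a median of 0.531 in line 1, 0.95 in line 2 and 1.21 in line 3. In light medium line 1 was the highest for some of them, such as ME3 and FABP5, and line 2 for others, such as GPRASP1 and GPRASP2. Without line 1, 9 of the 18 still passed by edgeR with adjusted p-values of up to 0.0456, and 9 did not. Those that did not were ME3, LHPP and GNG7 (adjusted p of 0.0613 each), ARPIN (0.073), HACD4 and MPV17L (0.0885 each), SHISA4 (0.0949), AC008555.1 (0.0978) and FABP5 (0.101).

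**Figure D3:**
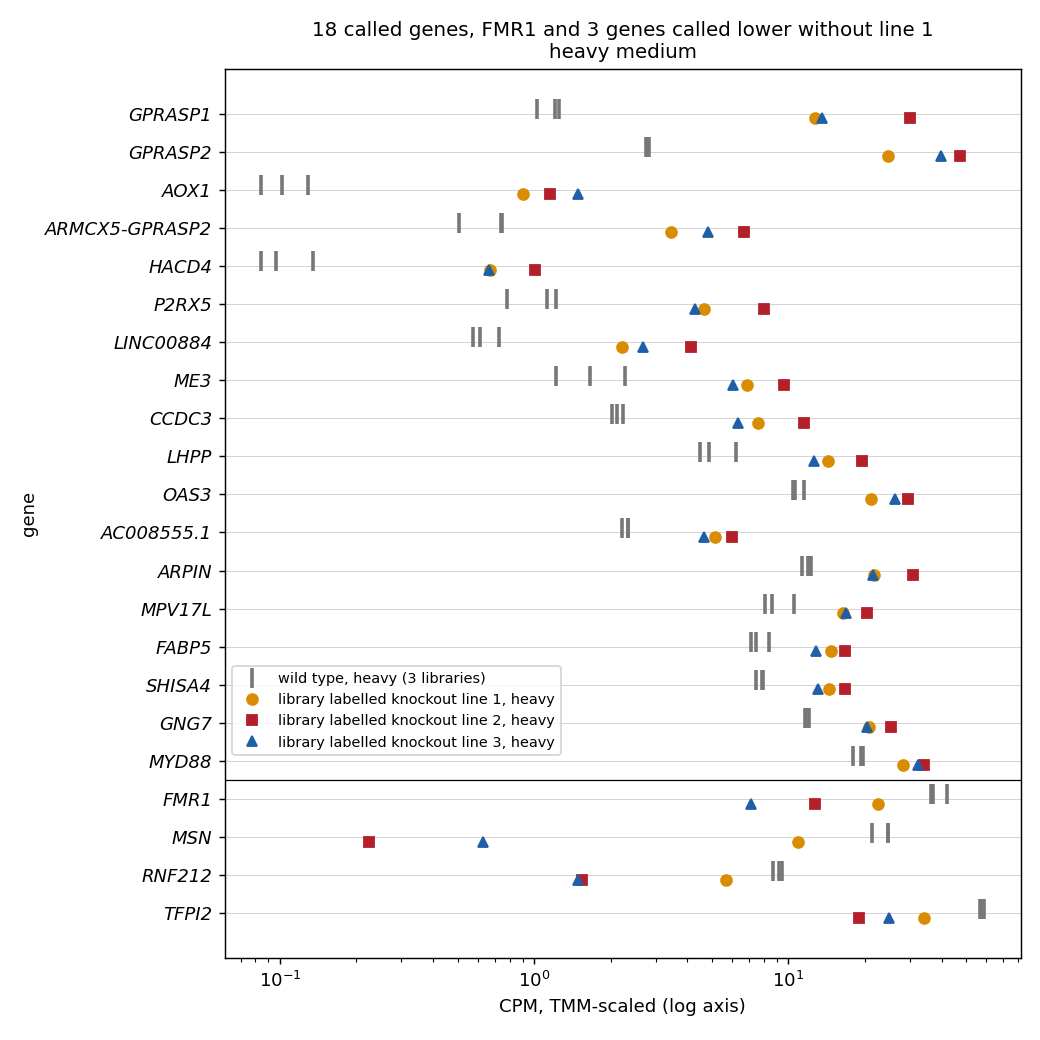
CPM on a log axis (horizontal) for the 18 called genes, FMR1 and 3 genes called lower without line 1 (vertical). Grey ticks are the 3 wild-type heavy libraries and the circle, square and triangle are the heavy libraries labelled lines 1, 2 and 3; for GPRASP2 the wild-type ticks lie at 2.76 to 2.84 CPM and the lines at 24.6 to 47.3 CPM.

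Leaving out line 1 changed which genes passed. Of 16234 genes tested, 19 were called (0.117%), 16 higher (0.0986%) and 3 lower (0.0185%). They shared 9 genes with the 18 above, which is 50% of those and 47.4% of the 19. S100A6, a calcium-binding protein, was at 20.7, 20.6 and 23.4 CPM in wild type and at 36.9, 63.8 and 50.7 CPM in lines 1, 2 and 3. It had an adjusted p of 0.0653 by edgeR with line 1 and 0.00938 without. NECTIN2, a cell adhesion molecule, was at 1.12 to 1.74 CPM in wild type, at 1.17 CPM in line 1 and at 18.9 and 14.4 CPM in lines 2 and 3 (adjusted p of 0.00162 by edgeR without line 1). It was at 1.44 CPM in line 1 in light medium too, so line 1 was at the wild-type level in both media.

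The 3 genes that fell without line 1 were MSN, RNF212 and TFPI2. MSN (chromosome X, 65588377 to 65741931) encodes moesin, which ties actin to the cell membrane. It was at 24.5, 24.6 and 21.4 CPM in wild type and at 10.9, 0.225 and 0.630 CPM in lines 1, 2 and 3. Lines 2 and 3 had nearly lost it, and line 1 lay between them and wild type, although its light library was at 0.113 CPM. The difference without line 1 was -5.81 on the log2 scale with an adjusted p of 0.00126 by edgeR, and with line 1 it was -2.58 (SE 1.28) with an adjusted p of 0.368. RNF212, a protein of meiotic recombination, was at 8.67, 9.19 and 9.43 CPM in wild type and at 5.70, 1.55 and 1.49 CPM in the lines, with an adjusted p of 0.00233 by edgeR without line 1 and 0.205 with it. TFPI2, a secreted protease inhibitor, was at 57.4, 58.9 and 56.8 CPM in wild type and at 34.0, 19.0 and 24.9 CPM in the lines, with an adjusted p of 0.0128 by edgeR without line 1 and 0.0686 with it. For all 3 genes the knockout libraries lay below every wild-type library, and line 1 was the nearest to wild type.

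Many other differences belonged to 1 or 2 lines. Of the same 12505 genes, line 2 had 513 at least 2-fold above the wild-type mean and 283 below it. Line 1 had 204 and 26, and line 3 had 89 and 43, while single wild-type libraries had 1 to 5 and 1 to 3. Lines 2 and 3 shared 68 genes at least 2-fold higher, of which line 1 was on the same side for 67 and past 2-fold for 59. They shared 23 genes at least 2-fold lower, of which line 1 was on the same side for 23 and past 2-fold for 3. MAGEA10, a cancer-testis antigen, was at 0.102 to 0.193 CPM in wild type and at 28.9, 34.1 and 0.398 CPM in lines 1, 2 and 3. GTSF1, a germline protein of the piRNA pathway, was at 0.385 to 0.533 CPM in wild type and at 18.3 CPM in line 1, 0.225 CPM in line 2 and 2.55 CPM in line 3. In light medium line 1 held 57.9 CPM of MAGEA10 and 32.5 CPM of GTSF1. ADAMTS19, a secreted metalloprotease, was at 24.5 to 25.9 CPM in wild type and at 10.5, 0.309 and 8.38 CPM in the lines. Line 1 lay beside line 3 there, and line 2 was far lower. In light medium ADAMTS19 was at 0, 0.539 and 9.30 CPM in lines 1, 2 and 3, so line 1 lay beside line 2.

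More neuropeptide and synaptic genes lay above wild type than below, with none called by edgeR. NPY, neuropeptide Y of sympathetic neurons, was at 3.08, 4.11 and 3.54 CPM in wild type and at 75.1, 148 and 24.5 CPM in lines 1, 2 and 3. The groups did not overlap, yet the lines differed so much among themselves that the log2 difference of 4.53 (SE 0.807) had an adjusted p of 0.12 by edgeR. SCG5, a chaperone of prohormone convertase 2, was at 1.45 to 1.80 CPM in wild type and at 37.0, 31.7 and 4.57 CPM in the lines (adjusted p of 0.154 by edgeR). Of 15 neuropeptides and granins tested, 5 lay above every wild-type library and 2 below, against 14% and 11.4% of all genes. Without line 1 the counts were the same, against 17.6% and 16.2%. The summed level of that list did not rise, at 3440 to 3986 CPM in wild type and 3628, 3226 and 3770 CPM in lines 1, 2 and 3. Of 32 synaptic vesicle and release genes tested, 14 lay above every wild-type library and 1 below, against 14% and 11.4% of all genes, and their median difference was 0.28. The median was 0.23, 0.51 and 0.11 in lines 1, 2 and 3. SYT4, a synaptotagmin, was at 66.8 to 76.5 CPM in wild type and at 93.2, 91.5 and 112 CPM in the lines, with the smallest adjusted p of that list, 0.0876 by edgeR. SYP, synaptophysin, was at 81.7 to 86.2 CPM in wild type and at 107, 133 and 97.7 CPM in the lines. Of 33 neuronal cytoskeleton and differentiation genes, 16 lay above and 6 below. Of 40 long mRNAs described as FMRP ligands, 9 lay above and 4 below with a median of 0.09, against a median of 0.00 over all genes. ATP2B2, a calcium pump of the plasma membrane, was at 8.37 to 10.4 CPM in wild type and at 14.2, 19.2 and 13.9 CPM in the lines (adjusted p of 0.0882 by edgeR). Without line 1 the counts above and below were 16 and 1 of the synaptic vesicle, 16 and 6 of the cytoskeleton and 9 and 5 of the FMRP ligand genes, against 17.6% and 16.2% of all genes, and the medians were 0.28, 0.17 and 0.11. DESeq2 called 9, 8 and 3 of these lists higher and 0, 2 and 2 lower, against 3.88% and 1.06% of all genes. Its adjusted p was 4.57e-08 for NPY, 0.00023 for SCG5, 0.00242 for SYT4 and 0.0148 for SYP.

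More genes of cell division, the secretory pathway, cholesterol synthesis and uptake and Notch signalling lay below wild type than above. None was called by edgeR. Of 37 DNA replication and G1/S genes, 12 lay below every wild-type library and 0 above, against 11.4% and 14% of all genes, with a median of -0.11. RRM2, a subunit of ribonucleotide reductase, was at 298 to 310 CPM in wild type and at 259, 232 and 236 CPM in the lines (adjusted p of 0.0936 by edgeR). Of 28 endoplasmic reticulum chaperones and unfolded protein response genes, 11 lay below and 2 above. HSP90B1, the endoplasmic reticulum form of HSP90, was at 737 to 810 CPM in wild type and at 681, 528 and 686 CPM in the lines. Of 24 cholesterol genes 7 lay below and 1 above, and HMGCS1, an early enzyme of the pathway, was at 174 to 197 CPM in wild type and at 137, 120 and 154 CPM in the lines. Of 21 Notch genes 7 lay below and 2 above. The summed level of the Notch list was nonetheless 902 to 1023 CPM in wild type and 1402, 2224 and 963 CPM in lines 1, 2 and 3. Line 2 had the lowest median in the chaperone, cholesterol, Notch and G1/S lists in heavy medium, at -0.27, -0.24, -0.45 and -0.19. In light medium line 2 had the lowest median for chaperone and Notch genes, at -0.345 and -0.412. Line 1 had the lowest there for cholesterol and G1/S genes, at -0.302 and -0.199, against -0.171 and -0.129 in line 2. Without line 1 the counts below were 14 for G1/S, 13 for chaperone, 7 for cholesterol and 7 for Notch genes, against 16.2% of all genes. DESeq2 called 2 of 37 G1/S, 0 of 28 chaperone, 2 of 24 cholesterol and 1 of 21 Notch genes lower, against 1.06% of all genes. Its adjusted p was 0.00455 for RRM2 and 0.00579 for HMGCS1.

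Adhesion, guidance and matrix genes lay on both sides of wild type, with single lists leaning either way. None was called by edgeR with all 3 lines. Of 35 axon guidance ligands and receptors, 8 lay above and 13 below every wild-type library, against 14% and 11.4% of all genes. Of 22 immunoglobulin-type adhesion molecules and LAR phosphatases, 9 lay above and 2 below. For 9 cadherins and protocadherins these counts were 2 and 4, for 19 matrix proteoglycans 3 and 4, and for 17 collagen chains 1 and 6. SLIT3, a secreted repellent of growing axons, was at 236 to 250 CPM in wild type and at 304, 327 and 315 CPM in the lines (adjusted p of 0.0784 by edgeR). NCAM2, a neural cell adhesion molecule among the 2 below, was at 5.36 to 5.86 CPM in wild type and at 2.57, 1.69 and 2.85 CPM in the lines (adjusted p of 0.0653 by edgeR). VCAN, the matrix proteoglycan versican, was at 8.54 to 10.3 CPM in wild type and at 5.84, 3.29 and 4.57 CPM in the lines (adjusted p of 0.0878 by edgeR). Among 7 fibroblast markers 5 lay below and 0 above, and their summed level was 281 to 288 CPM in wild type and 244, 188 and 235 CPM in lines 1, 2 and 3. In bulk RNA, fewer cells of a type and less RNA per cell cannot be told apart. PMP22, a myelin protein that is also on the Schwann and glial list, was at 5.66 to 6.12 CPM in wild type and at 18.4, 27.5 and 10.1 CPM in the lines (adjusted p of 0.115 by edgeR). Without line 1 the counts above and below were 8 and 14 for axon guidance and 0 and 5 for fibroblast genes, against 17.6% and 16.2% of all genes. They were 11 and 2 for the immunoglobulin-type list, 3 and 4 for cadherins, 3 and 4 for proteoglycans and 2 and 8 for collagens. DESeq2 called 7 genes of the immunoglobulin-type list higher and 2 lower, against 3.88% and 1.06% of all genes. It called 2 guidance genes higher and 5 lower and 2 fibroblast markers lower. Its adjusted p was 0.00169 for SLIT3, 3.6e-05 for NCAM2 and 0.000366 for VCAN.

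**Figure D4:**
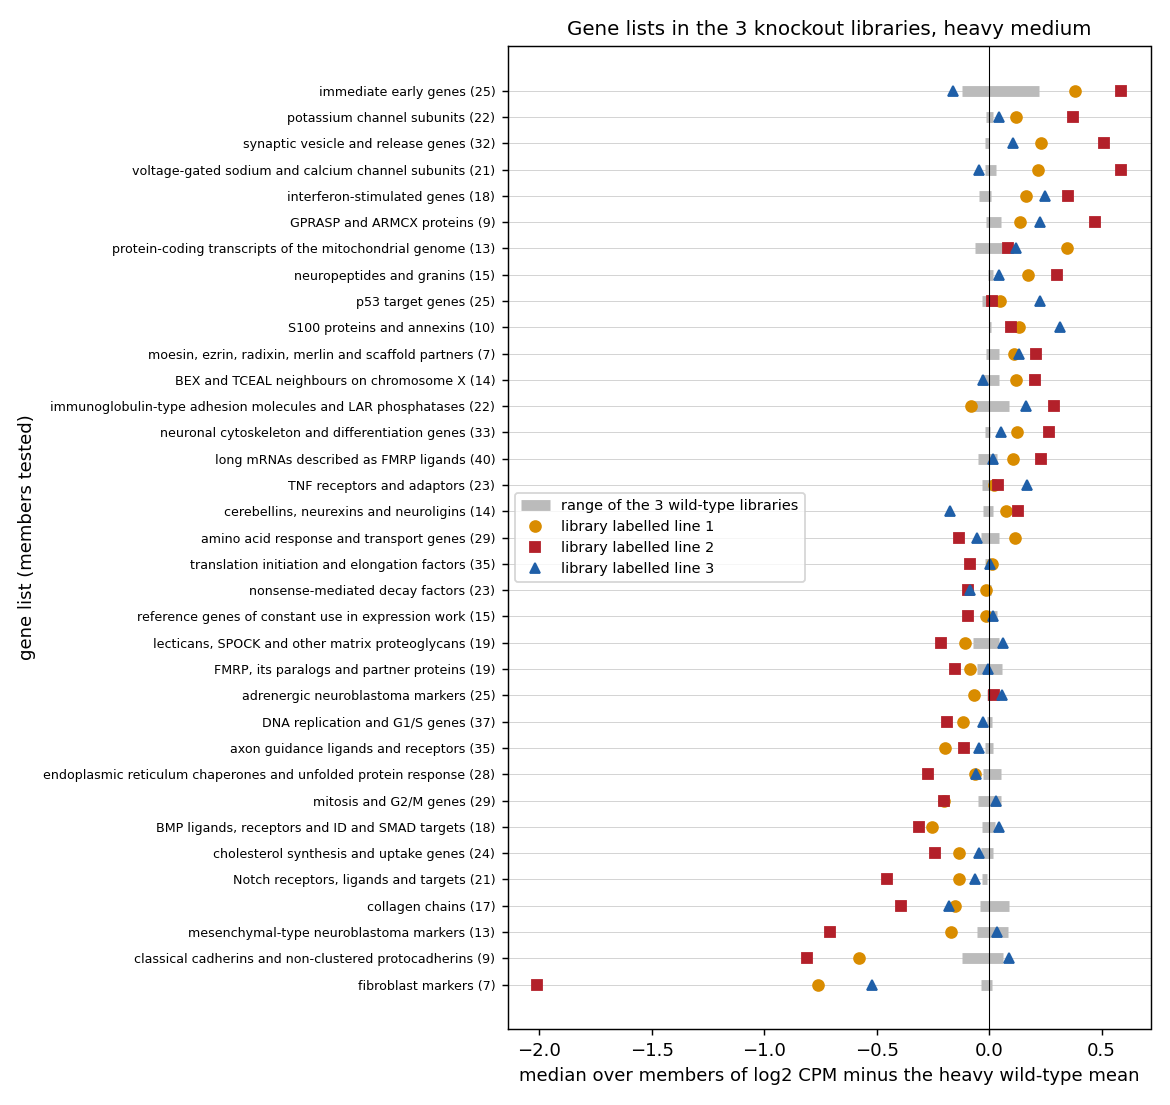
Median over the tested members of log2 CPM minus the heavy wild-type mean (horizontal axis) for 35 gene lists (vertical axis, members tested in brackets). Grey bars span the 3 wild-type libraries and symbols are the libraries labelled lines 1, 2 and 3; for synaptic vesicle genes the lines lie at 0.23, 0.51 and 0.11.

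The same lines in light medium are set beside these values. There, 231 of 16010 genes passed (1.44%), 145 higher (0.906%) and 86 lower (0.537%), by edgeR's quasi-likelihood test. That count was 4, 4 and 5 without wild-type libraries 1, 2 and 3, and 24, 71 and 6240 without lines 1, 2 and 3. Of the 18 genes called in heavy medium, 16 were called in light medium and in the same direction, which is 88.9% of the 18 and 6.93% of the 231; HACD4 and SHISA4 missed with adjusted p-values of 0.0696 and 0.0579 by edgeR. Both comparisons used the same knockout lines. Of 140 genes higher in light medium that were tested in heavy medium, 140 had the same sign there and 16 passed. Their median difference was 1.08 in light and 0.84 in heavy medium. By line, the light medians were 1.18, 1.20 and 0.81, and the heavy medians 0.73, 1.14 and 0.66, so the gap between media was widest in line 1. Of 85 genes lower in light medium, 85 had the same sign in heavy medium and 0 passed, with medians of -0.66 and -0.42. The heavy medians by line were -0.32, -0.67 and -0.41, against -0.75, -0.74 and -0.53 in light medium.

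Whether the knockout difference depended on the medium was tested as an interaction over 16704 genes. None passed at an adjusted p under 0.05, and 149 genes had an unadjusted p under 0.05 (0.892%), with edgeR the only tool run. MNS1, DUSP1 and DUSP5 had the smallest p-values of the protein-coding genes with an average log2 CPM of at least 1, each with an adjusted p of 1 by edgeR. DUSP5, a phosphatase of ERK kinases, was at 9.15, 9.25 and 10.4 CPM in heavy wild type and at 14.8, 18.2 and 10.2 CPM in lines 1, 2 and 3. Line 3 therefore lay within the wild-type range and lines 1 and 2 above it. For FMR1 the interaction was 0.36 on the log2 scale, with an unadjusted p of 0.419 by edgeR. These interaction values came from a fit that treated the heavy and light libraries of a line as independent. Differences between lines therefore added to its spread. With same-numbered heavy and light libraries of each genotype joined as a block, 0 genes passed by edgeR and 396 had an unadjusted p under 0.05. A p that misses the threshold does not show that the media gave the same difference. For line 1 the median ratio given above was 0.507.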

How the data were processed

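Poly(A) RNA was made into stranded libraries, per the labels' protocols. The deposited values are raw counts per gene symbol for 12 libraries, unnormalised. Per the submitters' processing notes, bcl2fastq 2.19.0, STAR 2.7.0f, featureCounts of Subread 1.6.4, DESeq2 1.22.1, R 3.5.1 and GRCh38.p13 were used; the annotation release, the strand setting and the handling of reads with several positions were not given in the sources used here. Of 59087 symbols, 56195 matched a single GENCODE 29 gene, which gave positions and gene types.

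Counts were fitted in R 4.3.3 with edgeR 4.0.16 (TMM factors, filterByExpr, robust quasi-likelihood fit, Benjamini-Hochberg adjustment, threshold 0.05) on the 6 heavy libraries alone. Light medium was fitted the same way, and the interaction on all 12. Alternatives were DESeq2 1.42.0, limma 3.58.1 voom, RLE factors, other filters, a replicate block, a spread shared by all 12 libraries, a test against 1.5-fold and each library left out. The steps were tested on simulated data. Named genes (list genes aside, protein-coding with an average log2 CPM of at least 1) were FMR1, FXR1 and FXR2, the largest called rises and falls of protein-coding genes, filled for falls from the fit without line 1, up to 3 genes of smallest p in each of 40 gene lists, 6 genes in which line 1 stood farthest from the mean of lines 2 and 3, and 3 genes of the interaction; the lost and gained genes and the remaining called genes were named after their values were seen. Members and lists were chosen with earlier results of these data known. Sequences are from RefSeq (GRCh38.p14), in which 11 of 22 symbols had 1 promoter entry.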

Additional observations from a re-analysis of the deposited data

How the results depend on the processing

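The heavy-medium count of 18 genes was 17 with RLE factors and 23 without the robust option. It was 816 with DESeq2 (79.2% of them higher), 775 with no filter on low counts (75.9% higher), 99 with a spread shared by all 12 libraries, 9 with a filter of at least 1 CPM in 3 libraries, 2 with limma-voom and 1 against a fold of 1.5. Leaving out 1 library at a time gave 0 to 2243 calls, and without any wild-type library the smallest adjusted p by edgeR was 0.184 to 0.393. Of the 18 genes, DESeq2 called 18, limma-voom 1, and the fit without line 1 called 9. The light-medium count of 231 ranged from 4 to 6240 with 1 library left out; the light wild-type libraries were left out after seeing the data. The cause was not tested. The median ratio of heavy to light differences in line 1 was 0.504 to 0.517 under the other thresholds and scaling, and in line 3 it was 0.803 over 58 genes at a 2-fold threshold. The interaction count stayed at 0 by edgeR without line 1 (118 genes at an unadjusted p under 0.05). The scaling moved the median log2 difference of all genes from -0.00122 with TMM to -0.0125 with DESeq2. The list counts by DESeq2 and the list overlaps without line 1 were added after seeing the data.

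With the replicate number as a block, the heavy count was 94 and the light count 153 by edgeR. For the interaction, the block joined the heavy and light libraries of the same genotype and number. It gave a count of 0 by edgeR (396 genes at an unadjusted p under 0.05). Deviations of same-numbered heavy knockout and wild-type libraries correlated at -0.22, -0.0553 and -0.174, none of them positive. Whether a knockout and a wild-type library of the same number were handled together was not tested.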

Other observations

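ZNF663P, a pseudogene of a zinc finger gene on chromosome 20, had 0 counts in the 3 heavy wild-type libraries and 11, 19 and 12 counts in lines 1, 2 and 3, or 0.321, 0.534 and 0.398 CPM. It was at least 13.4-fold higher, taking 3 counts over the wild-type group as the floor, and its adjusted p by edgeR was 0.0636. It was the only gene with 0 counts in 1 group and at least 10 counts in every library of the other.

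Potassium channel subunits and p53 target genes held further genes above wild type. KCNT1, a sodium-activated potassium channel, was at 3.12 to 3.85 CPM in wild type and at 10.8, 23.5 and 7.06 CPM in lines 1, 2 and 3 (adjusted p of 0.128 by edgeR). Of 22 potassium channel genes tested, 5 lay above every wild-type library and 2 below, against 14% and 11.4% of all genes. By edgeR 0 passed, and DESeq2 called 3 higher and 0 lower, against 3.88% and 1.06% of all genes. KCNT1 was among the 3 (adjusted p of 0.00566 by DESeq2). PHLDA3, a p53 target that restrains AKT, was at 10.5 to 12.7 CPM in wild type and at 14.9, 16.9 and 21.0 CPM in the lines (adjusted p of 0.114 by edgeR), with line 3 the highest. Of 25 p53 target genes, 6 lay above and 2 below, with 0 called by edgeR. DESeq2 called 1 of the 25, near its share of 3.88% over all genes. Without line 1 the counts above and below were 7 and 2 for potassium channel and 8 and 2 for p53 target genes, against 17.6% and 16.2% of all genes. ID4, an inhibitor of basic helix-loop-helix transcription factors, was at 2.16 to 2.95 CPM in wild type and at 0.935, 0.534 and 1.16 CPM in the lines (adjusted p of 0.0868 by edgeR).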
